A study of Mus musculus with 38 samples.

Results

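Brain clonogenic cultures labelled IR were compared with control brain cultures, 5 libraries against 5, which together make 10 of the 38 samples of the series. The members are chosen by their labels alone: every library whose title gives the brain clonogenic assay and either control or IR. The labels give 4T1, a mouse triple-negative mammary adenocarcinoma line, as the cell line of every brain library, with no treatment for the controls and "IR group" for the IR libraries. A further set of 5 brain libraries, labelled IS group, entered the same model and is used here only for comparison. In the 4T1 cell culture experiment of the same series, IS and IR mean insulin sensitive and insulin resistant adipocytes, whose exosomes were given to the cells for 72 h; how the brain groups were exposed, the strain, sex and age of any host animals, and whether 1 library is 1 animal are not given in the sources used here. The labels call the libraries biological replicates without tying them to animals, so p-values measure the spread between these libraries, part of which may be technical. Library totals were 8790620 to 11533200 expected counts, the gene totals that the counting program RSEM estimates from reads, and levels below are CPM, counts scaled to an equal total for every library. A log2 difference is IR minus control from edgeR's quasi-likelihood fit over all 15 brain libraries, SE is its standard error, and a gene is called at a Benjamini-Hochberg adjusted p under 0.05 over 12924 genes.

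The libraries did not look like cultured 4T1 cells. Epcam, the epithelial adhesion molecule, was at 0.616 to 2.91 CPM in control and 0.507 to 1.70 CPM in IR libraries, against 139 to 208 CPM in the 9 libraries of the 4T1 culture experiment. Xist, which silences 1 of the X chromosomes in female cells, was at 466 to 573 and 369 to 571 CPM in the control and IR groups and at most 0.0895 CPM in cultured 4T1. The summed level of 22 epithelial markers was 344 to 481 CPM in controls, 367 to 470.1 in IR and 3895 to 4984 in cultured 4T1, and that of 25 mitosis genes was 201 to 252, 150.4 to 338 and 5441 to 5989 CPM in the same order. The culture table was scaled separately, so these levels are set side by side without a test. Both groups thus stood far below the labelled line in epithelial and mitosis genes, and the comparison below is described as one of mixed brain cultures. In such bulk samples more cells of a type and more RNA per cell cannot be told apart.

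A clonogenic assay plates cells of a dissociated organ so that tumour cells grow out as colonies, while host cells that attach to the dish can persist beside them. Brain endothelial cells line the vessels and form the blood-brain barrier with claudin junctions; sprouting endothelium is led by tip cells marked by the Notch ligand Dll4. Microglia and the macrophages of the brain's borders depend on the receptor Csf1r and the transcription factor PU.1, encoded by Spi1. PU.1 and the endothelial factor Erg both belong to the ETS family, whose members bind a GGAA core.

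Erg rose and Spi1 fell in the IR cultures, so the ETS-type hexamer AGGAAG was searched on both strands in RefSeq promoter windows of build GRCm38.p6, which run from 250 bases before to 50 bases after a gene's start. The hexamer is a literal string, and its other strand reads CTTCCT. A gene was counted if any of its windows held the hexamer, as for 38.4% of the 27025 genes with a window. Among the endothelial markers called higher, 10 of 15 had a window and 7 of those 10 held it; among the macrophage markers called lower, 8 of 13 had a window and all 8 held it. Counted by window, 35.4% of all windows held it, as did 8 of 14 windows of the endothelial and 10 of 10 of the macrophage markers. The sets are small, no excess over all genes was tested, and a match describes letters only, not a site that is used. Shown are the 250 bases before the start of 1 marker from each list, Flt1, a receptor for vascular endothelial growth factor, at chr5:147726012-147726261 (minus strand), and C1qc, a chain of complement C1q, at chr4:136892915-136893164 (minus strand). Called markers were taken in order of adjusted p. Those without exactly 1 window, without a match, with a match past the start, or on 1 chromosome left out of the choice were passed over. Each is written 5′ to 3′, with the 2 matches in capitals.
Flt1: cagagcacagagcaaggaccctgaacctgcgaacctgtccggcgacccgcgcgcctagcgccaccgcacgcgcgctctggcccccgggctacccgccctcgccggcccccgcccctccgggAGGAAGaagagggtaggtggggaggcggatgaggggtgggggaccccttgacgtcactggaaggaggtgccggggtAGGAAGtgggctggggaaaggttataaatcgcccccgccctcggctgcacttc
C1qc: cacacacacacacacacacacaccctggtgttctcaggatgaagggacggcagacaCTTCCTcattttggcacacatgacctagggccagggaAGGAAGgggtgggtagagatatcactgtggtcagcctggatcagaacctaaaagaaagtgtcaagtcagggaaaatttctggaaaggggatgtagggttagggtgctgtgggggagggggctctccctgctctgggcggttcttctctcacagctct

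Across the transcriptome the IR cultures differed from controls at 1514 of 12924 genes, or 11.7%, with 833 higher (6.45%) and 681 lower (5.27%). The median log2 difference over all tested genes was 0.00. Among called genes the median size of the difference was 0.66 on the log2 scale, and a 2-fold change was reached by 266 of those that rose and 195 of those that fell. The largest rises were mainly vessel genes, 9 of 12, and the largest falls mainly phagocyte genes, 7 of 12. Both sets of 12 were drawn only from called genes whose IR and control libraries did not overlap. For them the separation of the groups follows from that rule. The share of all genes without overlap is not given, so a lack of overlap below only describes single genes. Of the 12 largest rises at a mean level above 10 CPM, Dll4, Nos3, Cldn5, Ptprb, Bcl6b, Clec14a, Erg, Ly6c1 and Pecam1 are known from endothelium; among the 12 largest falls, Itgam, Ccl9, Itgax, Clec7a, Lat2, Msr1 and Mmp12 are known from macrophages and other myeloid cells, while Megf6 (-1.87), Svep1 (-1.71), Npy (-1.63), Igf1 and Fos made up the rest. The count depended on single libraries: it was 836 without IR 3, 898 without control 4, 956 without control 2, 1803 without IR 4 and 846 without both IR 3 and IR 4. IR 3 lay farthest from the controls on the first principal component of all 15 libraries, which held 35.9% of the variance, and IR 4 lay nearest to them.

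**Figure D1:**
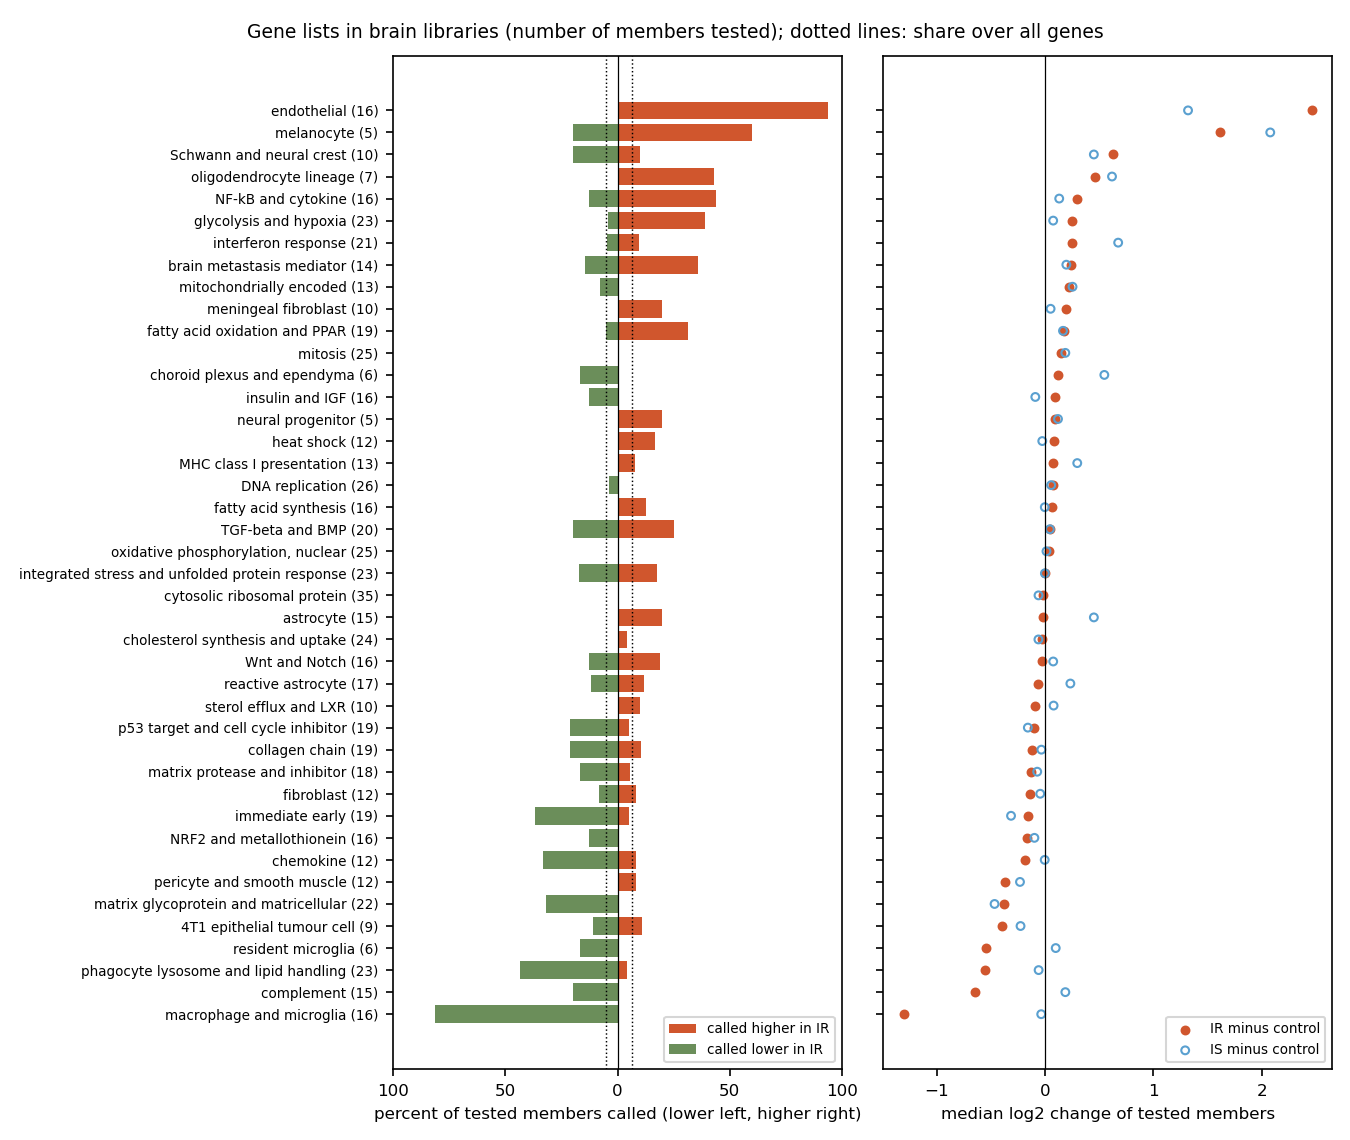
Left, the percent of tested members of each gene list that were called higher (orange, to the right) or lower (green, to the left) in IR than in control libraries, with the number of members tested in brackets and dotted lines at the shares over all genes, 6.45% and 5.27%. Right, the median log2 change of the tested members for IR (filled) and IS (open) against the same 5 controls. Endothelial markers sit at the top with 15 of 16 called higher, and macrophage and microglia markers at the bottom with 13 of 16 called lower.

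Endothelial markers had the largest share of called members of all 49 lists. Of 17 markers, 16 passed the filter on low counts, 15 were called higher (background 6.45%) and none lower, with a median log2 difference of 2.46. Their summed level was 201 to 286 CPM in the controls and 731 to 1571 CPM in the IR libraries, with no overlap. In cultured 4T1 cells the same sum was 57.1 to 66.9 CPM. Pecam1, the junction protein CD31 of endothelial cells, was at 23.1, 19.5, 17.6, 21.4 and 12.4 CPM in control libraries 1 to 5. The IR libraries held 176, 143, 185, 91.97 and 200.1 CPM in the same order. Every IR library was above every control, and IR 4 was the lowest of its group (log2 difference 3.09, SE 0.40, edgeR adjusted p = 0.000409). Cdh5, VE-cadherin, the adhesion protein of endothelial junctions, went from 49.5, 40.1, 32.4, 54.96 and 33.1 CPM in controls to 279.6, 239, 250.3, 148 and 345 CPM in IR libraries (log2 difference 2.59, SE 0.38, edgeR adjusted p = 0.000697). Here too IR 4 was lowest and IR 5 highest, and the groups stood apart.

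The called markers include junction, transport, receptor and transcription factor genes. Cldn5, the main claudin of brain endothelial tight junctions, was at 3.30, 5.93, 5.64, 4.89 and 1.76 CPM in controls and 53.4, 32.1, 37.2, 33.9 and 61.1 CPM in IR libraries (log2 difference 3.36, SE 0.47, edgeR adjusted p = 0.000541). Abcb1a, the efflux pump P-glycoprotein of the barrier, had 5.32 to 12.6 CPM in controls and 19.9 to 43.5 CPM in IR libraries (log2 difference 1.82, SE 0.31, edgeR adjusted p = 0.00178). Neither gene overlapped between groups. Erg, an ETS factor that maintains endothelial identity, was at 7.32, 6.87, 5.11, 6.92 and 4.58 CPM in controls and 55.2, 49.96, 70.2, 31.7 and 81.2 CPM in IR libraries (log2 difference 3.23, SE 0.43, edgeR adjusted p = 0.000422). The receptors rose by unequal amounts: Tie1 by 2.79, Tek, the angiopoietin receptor, by 2.33, Flt1 by 1.68 and Kdr, the main receptor for vascular endothelial growth factor, by 1.26 on the log2 scale. Sox17 (2.07), Egfl7 (2.76), Robo4 (3.02), Esam (1.96), Emcn (1.31) and Ptprb (3.29) were the other markers called. Vwf, the clotting factor stored in endothelial granules, was at 9.79 to 25.3 CPM in controls and 14.9 to 24.4 CPM in IR libraries and was not called (log2 difference 0.20, SE 0.22, edgeR adjusted p = 0.634). Slco1a4, an organic anion transporter of brain endothelium, did not pass the filter, with 1.85 to 2.37 CPM in controls and 0.428 to 1.72 CPM in IR libraries, each IR library below every control.

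**Figure D2:**
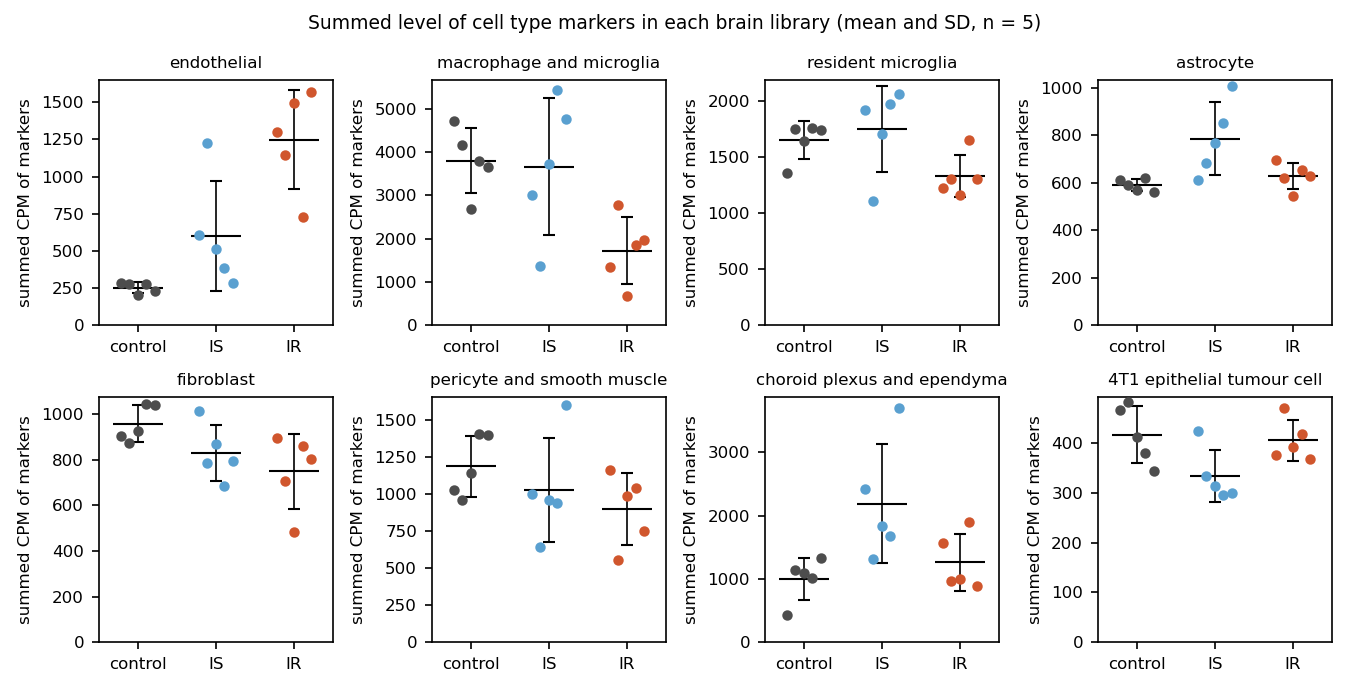
Summed CPM of the markers of 8 cell types in each control, IS and IR brain library (points), with the mean and SD of 5 libraries. Endothelial sums of the IR libraries lie above all controls, macrophage sums of IR lie below the controls except that IR 2 lies just above control 3, and the sums of the other types shown overlap.

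Single genes known from sprouting vessels rose too, of which Apln, Angpt2, Cd34 and Notch4 were chosen after their values were seen and stand for no list. Dll4, the Notch ligand of tip cells, was at 0.825, 0.814, 0.852, 1.63 and 0.704 CPM in controls and 33.8, 20.7, 9.89, 9.19 and 40.95 CPM in IR libraries, the largest rise among the genes that met the naming rule (log2 difference 4.56, SE 0.69, edgeR adjusted p = 0.000868). Nrarp, a Notch target that feeds back on the pathway, was at 0.103, 0.814, 0.319, 0 and 0 CPM in controls and 10.02, 5.57, 0.969, 4.25 and 11.8 CPM in IR libraries. Its level in control libraries is close to nothing, so its fitted difference of 4.76 rests on few counts, and IR 3 was near the controls. Apln, apelin, a peptide of tip cells, had 37.7, 40.5, 35.2, 37.4 and 35.4 CPM in controls and 330.0, 231, 137, 175 and 433 CPM in IR libraries (log2 difference 2.81, SE 0.45, edgeR adjusted p = 0.00121). Angpt2, angiopoietin 2, which loosens vessels for sprouting, had 124, 117, 107, 123 and 107 CPM in controls and 401, 361, 538, 287 and 517 CPM in IR libraries (log2 difference 1.86, SE 0.21, edgeR adjusted p = 0.000159). Both genes separated the groups fully. Cd34 (3.02), the Notch receptor Notch4 (2.79), the nitric oxide synthase Nos3 (3.46), Notch1 (0.89), the type I receptor Acvrl1, or ALK1, that binds BMP9 (1.19), the activin subunit Inhbb (2.23) and the tissue plasminogen activator Plat (1.63) also rose. Other genes among the 12 largest rises were Ppp1r16b (3.72), Bcl6b (3.26), Clec14a (3.25), Ly6c1, whose reads can be shared with its near copy Ly6c2 (3.14), Pgm5 (3.07) and Afap1l1 (3.06). Col4a1 and Col4a2, the chains of basement membrane collagen IV, were called at smaller sizes (0.52 and 0.55). Their groups overlapped, with Col4a1 at 804 to 994 CPM in controls and 969.5 to 1665 CPM in IR libraries. The call of Col4a1 was lost without any 1 library other than IR 2 or IR 4 (edgeR adjusted p up to 0.105) and that of Col4a2 without any 1 library other than IR 2 or IR 4 (edgeR adjusted p up to 0.101). All 15 endothelial markers were called without IR 3, and again without both IR 3 and IR 4.

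Mural cells, the pericytes and smooth muscle cells that wrap vessels, did not show the same pattern. Of 15 mural markers 12 were tested and 1, Notch3, was called higher (log2 difference 1.10, SE 0.19, edgeR adjusted p = 0.00199). The list's median was -0.37, and the background share called higher was 6.45%. Notch3 was at 22.8, 39.6, 30.2, 29.01 and 35.8 CPM in controls and 64.8, 55.2, 101.3, 49.5 and 67.4 CPM in IR libraries. The pericyte markers Pdgfrb (103 to 155 CPM in controls, 102 to 196 in IR) and Rgs5 (11.3 to 16.2 and 7.27 to 15.9 CPM) overlapped between groups and were not called (log2 differences 0.13 and -0.42). The summed mural level was 966 to 1406 CPM in controls and 559 to 1168 CPM in IR libraries.

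Macrophage and microglia markers moved the other way. Of 20 markers 16 were tested, 13 were called lower (background 5.27%) and none higher, with a median log2 difference of -1.30. Their summed level was 2682 to 4708 CPM in controls and 673 to 2774 CPM in IR libraries, overlapping only where IR 2 lay above control 3. In cultured 4T1 cells it was 20.00 to 24.5 CPM. The markers Aif1, C1qa, C1qb and Fcgr1 did not pass the filter on low counts. Csf1r, the receptor that macrophages need to survive, was at 86.6, 60.7, 43.2, 48.9 and 54.6 CPM in controls. In IR libraries it was at 17.7, 27.1, 14.4, 24.5 and 13.4 CPM, each below every control (log2 difference -1.60, SE 0.31, edgeR adjusted p = 0.00391). Itgam, the integrin CD11b of myeloid cells, fell further than any other gene that met the naming rule, from 46.4, 50.1, 35.3, 44.1 and 41.4 CPM in controls to 10.1, 12.2, 0.776, 15.5 and 7.06 CPM in IR libraries (log2 difference -2.26, SE 0.54, edgeR adjusted p = 0.0133). IR 3 was the lowest for Itgam and had the lowest macrophage sum of all 15 libraries. Spi1 was at 45.9 to 67.8 CPM in controls and 7.85 to 33.9 CPM in IR libraries (log2 difference -1.43, SE 0.34, edgeR adjusted p = 0.0133), again without overlap.

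The remaining called markers include receptors and adaptors of phagocytes. Trem2, a lipid receptor of microglia, and Tyrobp, its signalling partner, fell by 1.37 and 1.56 on the log2 scale, and Trem2 was at 160.1, 142, 119.8, 154 and 147 CPM in controls and 42.2, 75.4, 15.5, 81.1 and 66.5 CPM in IR libraries. C1qc fell (-2.23) at a level near the floor, with 1.03 to 4.75 CPM in controls and 0.291 to 0.919 CPM in IR libraries. Adgre1, the F4/80 antigen (-1.50), Ptprc, or CD45, carried by all leukocytes (-1.30), and Ctss, a lysosomal protease of antigen-presenting cells (-1.27), fell too. These calls rested on single libraries more than those of the vessel genes: of the 13, the number called was 7 without control 1 or IR 3 and 5 without control 2, control 4, control 5 or IR 1, and it was 5 without both IR 3 and IR 4. The call of Adgre1 was lost without any 1 library other than IR 2 or IR 4 (edgeR adjusted p up to 0.103), that of Ptprc without any 1 library other than control 3, IR 2 or IR 4 (edgeR adjusted p up to 0.0871), that of Trem2 without any 1 library other than control 3, IR 2, IR 4 or IR 5 (edgeR adjusted p up to 0.0706) and that of Tyrobp without control 4 or IR 1 (edgeR adjusted p up to 0.0624). No macrophage marker was called higher without IR 3 or without both. The self-renewing microglia of the brain are marked by genes that other macrophages lack, and these stood differently. Of 12 resident microglia markers 6 were tested and 1 was called lower (background 5.27%), while P2ry12, P2ry13, Cx3cr1, Siglech, Gpr34 and Fcrl2 did not pass the filter. The resident microglia sum was 1356 to 1758 CPM in controls and 1167 to 1651 CPM in IR libraries. Of 12 markers of border macrophages and monocytes 4 were tested, and Mrc1, the mannose receptor, fell from a control range of 17.99 to 29.9 CPM to an IR range of 3.01 to 14.5 CPM (log2 difference -1.44, SE 0.39, edgeR adjusted p = 0.0248), a call that was lost without control 1, control 4, IR 1 or IR 3 (edgeR adjusted p up to 0.0562).

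**Figure D3:**
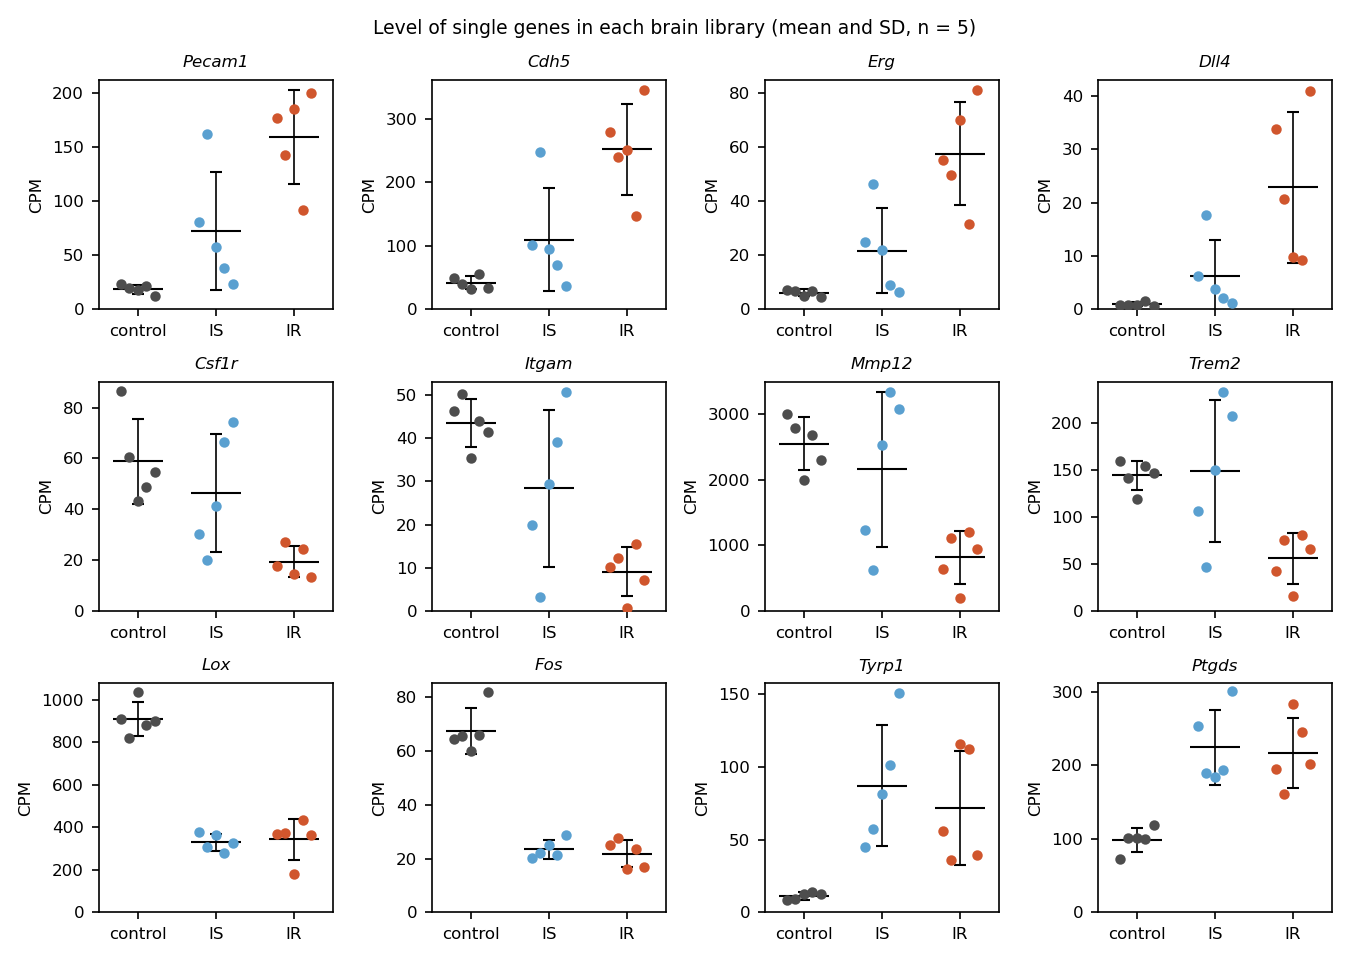
CPM of 12 genes in each control, IS and IR brain library (points), with the mean and SD of 5 libraries per group. The endothelial genes in the top row are high in every IR library and spread widely in IS, the phagocyte genes in the middle row are low in every IR library and spread widely in IS, and Lox, Fos, Tyrp1 and Ptgds in the bottom row differ from controls in both IS and IR.

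Genes of lipid-laden and lysosome-rich phagocytes fell with the markers. Of 23 tested, 10 were called lower and 1 higher (background 5.27% and 6.45%), with a median of -0.55. The summed level was 42756 to 46966 CPM in controls and 27533 to 40209 CPM in IR libraries. Mmp12, the macrophage elastase, was the most abundant of the large falls, at 2994, 2790.2, 1986, 2673 and 2306 CPM in controls and 633, 1110.5, 202, 1201 and 941 CPM in IR libraries (log2 difference -1.64, SE 0.43, edgeR adjusted p = 0.0212). Its call was lost without IR 1 (edgeR adjusted p = 0.0527), as was that of Msr1 without IR 1 (edgeR adjusted p = 0.0536), and that of Itgax was lost without any 1 library other than control 3, control 5, IR 2 or IR 4 (edgeR adjusted p up to 0.0569). Lgals3, galectin 3, was at 872, 798, 728, 936 and 739 CPM in controls and 319, 456, 199, 491 and 491 CPM in IR libraries (log2 difference -1.06, SE 0.27, edgeR adjusted p = 0.0186). Plin2, the coat protein of lipid droplets, was at 2516, 2244, 2378, 2188 and 2112 CPM in controls and 1489, 1619.9, 1240.1, 1670.1 and 1486 CPM in IR libraries (log2 difference -0.61, SE 0.09, edgeR adjusted p = 0.000925). Both genes were lower in every IR library than in any control. Itgax, or CD11c (-1.96), Clec7a, the beta-glucan receptor dectin 1 (-1.92), and the scavenger receptor Msr1 (-1.77) also fell. The apolipoprotein Apoe, which both phagocytes and astrocytes make, went the other way, with 1102 to 1587 CPM in controls and 1587 to 2341 CPM in IR libraries (log2 difference 0.48, SE 0.13, edgeR adjusted p = 0.0268), and Gpnmb, a glycoprotein of lipid-loaded phagocytes, was not called (2108 to 3146 and 1746 to 2747 CPM, log2 difference -0.18). The call of Apoe was lost without control 1, control 2, control 5, IR 3 or IR 4 (edgeR adjusted p up to 0.0674). The number of called falls in this list was 6 without IR 5 and 3 without control 1, control 2, control 4, IR 1 or IR 3. Complement genes followed in part: 3 of 15 were called lower, among them Itgb2, the beta chain of the complement receptors of leukocytes (-1.45), whose call was lost without control 1, control 2, control 4 or IR 1 (edgeR adjusted p up to 0.0617), and none was higher. The background share called lower was 5.27%, and the complement count was 1 without control 2 or IR 5 and 0 without control 1 or control 4.

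Chemokines split, with 4 of 12 called lower and 1 higher (background 5.27% and 6.45%). The lower count was 2 without control 4, control 5, IR 1, IR 2 or IR 3 and 1 without control 2. Ccl3 and Ccl4, which macrophages secrete, fell by 1.30 and 1.88, and Ccl9, another myeloid product, by 1.99 on the log2 scale, of which Ccl4 lost its call without any 1 library other than control 1, control 3, IR 4 or IR 5 (edgeR adjusted p up to 0.0686) and Ccl9 without control 2 (edgeR adjusted p = 0.0562). Cxcl14, a chemokine of epithelia and fibroblasts, fell by 1.57, a call lost without any 1 library other than control 3 or IR 4 (edgeR adjusted p up to 0.0793). Ccl2, which draws monocytes and is made by endothelium and fibroblasts among others, rose from 23.5, 40.03, 29.4, 26.2 and 33.7 CPM in controls to 100.3, 77.4, 102, 59.5 and 142 CPM in IR libraries (log2 difference 1.66, SE 0.28, edgeR adjusted p = 0.00155). The groups did not overlap for Ccl2, Ccl3, Ccl4 or Ccl9. Genes of the NF-kB pathway and cytokines were more often higher than lower, 7 of 16 tested against 2 (background 6.45% and 5.27%), with a list median of 0.30. The 2 called lower were the cytokines Csf1 (-0.59) and Il1a (-0.74). Csf1 was at 271 to 456 CPM in controls and 157 to 310 CPM in IR libraries. The higher count was 4 without IR 2, 3 without control 1, control 2, control 3, control 5 or IR 1 and 2 without control 4, IR 3 or IR 5, and the lower count was 1 without control 3, control 4, control 5, IR 2 or IR 5 and 0 without control 2 or IR 3. Traf1 (1.41), an adaptor of tumour necrosis factor receptors, Ptgs2, cyclooxygenase 2 (0.98), Nfkbiz (0.87) and Nfkbia (0.50), both inhibitors in the pathway, and the leukocyte adhesion molecules Vcam1 (0.65) and Icam1 (0.58) rose. The call of Traf1 held with each library left out, while Nfkbiz lost its call without control 3 or IR 3 (edgeR adjusted p up to 0.0597), Nfkbia without control 1, control 4, IR 1, IR 3 or IR 5 (edgeR adjusted p up to 0.0805), Vcam1 without any 1 library other than IR 2, IR 3 or IR 4 (edgeR adjusted p up to 0.119), Icam1 without any 1 library other than IR 4 (edgeR adjusted p up to 0.112) and Ptgs2 without any 1 library other than IR 4 (edgeR adjusted p up to 0.127). Activated endothelium is a known source of Vcam1 and Icam1, but which cells carried these transcripts was not tested. With the mean level of the macrophage markers in the edgeR fit as a covariate, none of the NF-kB list was called, 2 of 16 had an unadjusted p under 0.05, and the list median was 0.16. That fit called 0.356% of all genes, with standard errors 1.39 times as large in the median. A lost call in it therefore cannot tell cell content from lower power. Of 21 interferon response genes 2 were called higher and 1 lower, near the background shares of 6.45% and 5.27%.

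Among glia, a few genes were modestly higher. Of 17 astrocyte markers 15 were tested and 3 were called, all higher: Gja1, the gap junction protein connexin 43, was at 34.8, 38.05, 34.4, 37.8 and 33.5 CPM in controls and 70.5, 68.8, 53.03, 64.5 and 60.1 CPM in IR libraries (log2 difference 0.83, SE 0.09, edgeR adjusted p = 0.000159). The groups were far apart relative to their spread. The glutamate transporter Slc1a3 (0.52) and the factor Sox9 (0.45) rose by less, and Sox9 lost its call without control 1, control 2, control 3, IR 1 or IR 3 (edgeR adjusted p up to 0.0599). Gfap, the intermediate filament of reactive astrocytes, and Aqp4, the water channel of their endfeet, were not called: Gfap was at 51.04 to 80.6 CPM in controls and 14.4 to 69.5 CPM in IR libraries (log2 difference -0.61, SE 0.27), and Aqp4 at 8.45 to 15.7 and 9.32 to 13.9 CPM (0.03, SE 0.34). The astrocyte list as a whole had a median of -0.02, and its 3 calls stand beside a background of 6.45% higher. Of 13 oligodendrocyte lineage markers 7 were tested and 3 were called higher (background 6.45%). Ngfr, the p75 receptor of Schwann and neural crest cells, rose from 19.7, 19.7, 14.3, 10.9 and 20.5 CPM in controls to 82.4, 40.2, 43.3, 32.7 and 31.97 CPM in IR libraries (log2 difference 1.44, SE 0.31, edgeR adjusted p = 0.00717). IR 1 was the highest of its group by a wide margin. Of 10 Schwann and neural crest markers tested Ngfr was the 1 called higher, while 2, Pmp22 (-1.15) and Egr2 (-0.89), were called lower. The summed level of that list overlapped, at 137 to 188 CPM in controls and 123 to 236 CPM in IR libraries.

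Some genes known from pigment cells and the meninges rose. Of 10 meningeal fibroblast markers tested, 2 were called higher (background 6.45%), and the list median was 0.19. Of 9 melanocyte markers 5 were tested, 3 were called higher and 1 lower (background 6.45% and 5.27%), with a median log2 difference of 1.62, and without both IR 3 and IR 4, 1 was called higher. Tyrp1, a melanin synthesis enzyme, was at 8.25, 9.08, 12.6, 13.9 and 12.8 CPM in controls and 56.3, 35.98, 116, 112 and 39.8 CPM in IR libraries (log2 difference 2.66, SE 0.38, edgeR adjusted p = 0.000637), and was at 0 in cultured 4T1. The IR libraries fell into a lower set of 3 and a higher pair, IR 3 and IR 4, all above the controls. Mlana, a melanosome protein (1.62), and Oca2, a transporter of the melanosome membrane (1.74), rose as well, each with an overlap of the groups. Oca2 was at 0.407 to 1.86 CPM in controls and 1.28 to 9.89 CPM in IR libraries, and its call was lost without any 1 library other than IR 2 or IR 5 (edgeR adjusted p up to 0.148). Mitf, which melanocytes share with macrophages, fell (-0.70), a call that was lost without any 1 library other than IR 4 (edgeR adjusted p up to 0.125). The other 4 markers, Pmel, Tyr, Dct and Slc45a2, did not pass the filter on low counts. Ptgds, the prostaglandin D synthase of the meninges and choroid plexus, was at 72.9, 100.6, 100.8, 99.3 and 119 CPM in controls and 195, 161, 283, 245 and 201 CPM in IR libraries (log2 difference 1.14, SE 0.17, edgeR adjusted p = 0.000697). Slc29a4, a monoamine transporter also found in choroid plexus, rose from a control range of 74.2 to 117 CPM to an IR range of 155 to 252 CPM (log2 difference 0.89, SE 0.14, edgeR adjusted p = 0.00101). Ttr, the transthyretin of choroid plexus epithelium, was abundant and variable, with 235, 856, 803, 755 and 1053 CPM in controls and 1307, 721, 760.3, 1608 and 685 CPM in IR libraries, and was not called (log2 difference 0.46, SE 0.36, edgeR adjusted p = 0.459). Neutrophil, T and NK cell, B cell and red blood cell lists were close to absent: of their 40 members 2 were tested, edgeR and DESeq2 called neither, 1 had an unadjusted p under 0.05, and the neutrophil sum was at most 10.4 CPM in IR libraries.

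Several matrix genes fell, while the fibroblast list had 1 fall. Of 22 matrix glycoprotein and matricellular genes, all tested, 7 were called lower and none higher (background 5.27% and 6.45%), with a median of -0.38. Lox, the lysyl oxidase that crosslinks collagen and elastin, was at 912, 821, 1037, 881 and 899.9 CPM in controls and 370.3, 372, 179.7, 437 and 363 CPM in IR libraries (log2 difference -1.40, SE 0.17, edgeR adjusted p = 0.000222). IR 3 was the lowest and every IR library was below every control. Loxl2, a related oxidase, was at 801 to 997 CPM in controls and 288 to 539.6 CPM in IR libraries (log2 difference -1.02, SE 0.15, edgeR adjusted p = 0.000622). Thbs1, thrombospondin 1, a matricellular protein that restrains vessel growth, was at 3703, 4045, 4089, 4040.4 and 4199 CPM in controls and 2231, 1811, 1581, 2808 and 1848 CPM in IR libraries (log2 difference -0.97, SE 0.15, edgeR adjusted p = 0.00101). Ccn5 (-1.41), Ccn4 (-0.52) and the microfibril protein Fbn1 (-0.67) fell too. Most of these calls did not turn on IR 3, without which 6 of the 7 were called. Of 12 fibroblast markers tested 1 was higher and 1 lower, with a median of -0.14. Col1a1, the main chain of collagen I, was at 182 to 281 CPM in controls and 77.7 to 199 CPM in IR libraries and was not called (log2 difference -0.57, SE 0.21, edgeR adjusted p = 0.0829), and Dcn, decorin, was not called either (77.3 to 132 and 74.1 to 155 CPM, log2 difference 0.03, SE 0.21). Col5a2 (-1.03) and Col1a2 (-0.78) were the collagen chains with the lowest adjusted p among those that fell, and Col1a2 lost its call without control 3 or control 4 (edgeR adjusted p up to 0.0541). Adamts5, an aggrecan-cutting protease, fell by 0.79 on the log2 scale.

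Immediate early genes, which cells switch on within minutes of a stimulus, fell more often than they rose. Of 19 tested, 7 were called lower and 1 higher (background 5.27% and 6.45%), and the list median was -0.16. Fos, a subunit of the AP-1 factor, was at 64.3, 65.4, 59.8, 65.8 and 81.9 CPM in controls and 24.9, 27.8, 16.1, 23.5 and 17.001 CPM in IR libraries (log2 difference -1.63, SE 0.15, edgeR adjusted p = 4.10e-05). The 2 groups were tight and far apart, and control 5 was the highest. Zfp36, tristetraprolin, which destabilises inflammatory transcripts, was at 49.6 to 68.6 CPM in controls and 24.5 to 29.6 CPM in IR libraries (log2 difference -1.15, SE 0.11, edgeR adjusted p = 0.000107), and Ier2 fell by 0.98 and Junb by 0.49. Ier3 was the exception, higher by 0.91.

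Among energy metabolism genes more were called higher than lower, by small amounts. Of 23 genes of glycolysis and hypoxia, 9 were called higher and 1 lower (background 6.45% and 5.27%), and the list median was 0.25. Pfkp, the platelet-type phosphofructokinase, was at 119.9, 125, 148, 144 and 155 CPM in controls and 214, 204, 287, 194 and 206 CPM in IR libraries (log2 difference 0.68, SE 0.11, edgeR adjusted p = 0.00100), with IR 3 the highest. The oxygen sensor Egln3 (0.81), Ndrg1 (0.46) and the isomerase Gpi1 (0.33) rose, and the collagen prolyl hydroxylase P4ha1 fell (-0.33). Of 19 genes of fatty acid oxidation and PPAR response, 6 were higher and 1, Plin2, lower, with a median of 0.18. Without both IR 3 and IR 4 there were 3 higher. Pdk4, which turns pyruvate away from oxidation, was at 468, 318, 363, 312 and 336 CPM in controls and 715, 521, 1029, 588 and 603 CPM in IR libraries (log2 difference 0.94, SE 0.18, edgeR adjusted p = 0.00400). The groups did not overlap, and IR 3, the library with the lowest macrophage sum, was the highest. With the macrophage score as a covariate edgeR called none of either list, and 6 glycolysis and hypoxia genes and 5 of fatty acid oxidation had an unadjusted p under 0.05. The medians were 0.16 and 0.11 in that fit, whose standard errors were 1.39 times as large in the median. It called 0.356% of all genes, so lost calls cannot tell cell content from lower power.

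Genes of stress programmes were called in both directions. In the list for the integrated stress and unfolded protein responses 4 of 23 genes were higher and 4 lower (background 6.45% and 5.27%), and the median was 0.00. The higher ones include Trib3 (0.98) and the serine synthesis enzyme Psat1 (0.39), both targets of the factor ATF4, and the lower ones include the endoplasmic reticulum chaperones Hspa5 (969 to 1063 CPM in controls, 737 to 824 CPM in IR, log2 difference -0.40) and Hsp90b1 (-0.36). The p53 targets Gdf15 (-0.50), Ccng1 (-0.35), Mdm2 (-0.31) and Cdkn1a (-0.35) were lower, 4 of 19 in that list, with the cyclin-dependent kinase inhibitor Cdkn2b the 1 gene higher (0.61). The lower count was 2 without control 1, control 4 or IR 3. The call of Cdkn1a was lost without any 1 library other than IR 4 (edgeR adjusted p up to 0.119) and that of Mdm2 without control 1, control 4 or IR 3 (edgeR adjusted p up to 0.0618). With the macrophage score as a covariate edgeR called none of either list, and 4 stress response genes and 2 p53 list genes had an unadjusted p under 0.05. The p53 list median was -0.11 without and -0.11 with the score, and the stress list median was -0.09 with it. That fit called 0.356% of all genes, with standard errors 1.39 times as large in the median. The lost calls therefore cannot tell cell content from lower power.

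Several large programmes held no called gene. None of 25 mitosis genes, 35 cytosolic ribosomal protein genes or 25 nuclear genes of oxidative phosphorylation was called by edgeR or DESeq2, and 3, 2 and 1 of them had an unadjusted p under 0.05 in edgeR. The numbers called were 1 of 26 for DNA replication and 1 of 24 for cholesterol synthesis and uptake (background 11.7%). The medians of these lists were 0.15, -0.01, 0.03, 0.07 and -0.02. Mki67, a marker of dividing cells, was at 30.9, 20.4, 20.7, 21.3 and 18.2 CPM in controls and 36.8, 21.5, 12.5, 25.5 and 27.2 CPM in IR libraries (log2 difference 0.15, SE 0.24, edgeR adjusted p = 0.751). All control values lay within the IR range.

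Insulin and IGF genes were called at a share near that of all genes, 2 of 16 against 11.7%. Insulin resistance is a lowered response to insulin, which acts through the insulin receptor and its substrates. Transcript levels do not measure that response. Insr was at 69.5 to 81.6 CPM in controls and 79.6 to 99.6 CPM in IR libraries (log2 difference 0.22, SE 0.09, edgeR adjusted p = 0.106) and Irs1 at 72.7 to 83.6 CPM in controls and 62.1 to 73.98 CPM in IR libraries (log2 difference -0.19, SE 0.11, edgeR adjusted p = 0.307), and neither was called. Both called genes were lower. Igf1, a growth factor that phagocytes of the brain make, was at 75.9, 59.5, 42.4, 66.4 and 59.6 CPM in controls and 13.4, 28.9, 3.30, 27.8 and 22.3 CPM in IR libraries (log2 difference -1.67, SE 0.48, edgeR adjusted p = 0.0343) and lost its call without any 1 library other than control 3, IR 2 or IR 4 (edgeR adjusted p up to 0.0793). Igfbp4, a binding protein of IGFs, was at 799.5, 816, 1276, 954 and 698 CPM in controls and 387, 374, 269.6, 594 and 537 CPM in IR libraries (log2 difference -1.07, SE 0.21, edgeR adjusted p = 0.00391) and was called with each library left out. Of 14 tested genes that have been linked to brain metastasis, 5 were higher (background 6.45%): Ccl2, Plat, Gja1, Ptgs2 and Serpini1, or neuroserpin, an inhibitor of Plat (0.99), whose call was lost without control 2, control 4 or IR 3 (edgeR adjusted p up to 0.0659). The 2 lower were Ctss and Hbegf, a ligand of the EGF receptor (-0.49). The higher count was 3 without control 2, control 4 or IR 3.

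The other lists held calls in both directions or few calls. Of 20 TGF-beta and BMP genes 5 were higher and 4 lower (background 6.45% and 5.27%). The higher count was 3 without control 1 or IR 3, and the lower count was 2 without control 2, control 3, control 5, IR 1 or IR 2 and 1 without control 4 or IR 3. Beside Inhbb and Acvrl1, the BMP target Id3 (0.50) and the receptor Tgfbr2 (0.44) rose, and Id2 (-1.46) fell. The call of Id3 was lost without control 1 or IR 3 (edgeR adjusted p up to 0.0570). Of 16 Wnt and Notch genes 3 were higher (Nrarp, Notch1 and Notch3) and 2 lower, Sfrp4 and Notch2 (-0.34), the latter a call lost without any 1 library other than IR 2 or IR 4 (edgeR adjusted p up to 0.117). Of 10 Schwann and neural crest markers, Ngfr was higher and Pmp22 (-1.15) and Egr2 (-0.89) were lower, with a list median of 0.62. Pmp22 lost its call without any 1 library other than control 3 or IR 4 (edgeR adjusted p up to 0.0897) and Egr2 without any 1 library other than control 3 or IR 2 (edgeR adjusted p up to 0.107). The higher and lower calls were 2 and 4 of 19 collagen chains, 1 and 3 of 18 matrix proteases and inhibitors, 2 and 2 of 17 reactive astrocyte genes, 2 and 0 of 16 fatty acid synthesis genes, 2 and 0 of 12 heat shock genes, 0 and 2 of 16 NRF2 and metallothionein genes, and 1 and 0 of 10 genes of sterol efflux, the 1 being Apoe. The lower count of collagen chains was 2 without control 3, control 5, IR 2 or IR 3 and 1 without control 4, and each count of 2 in the lists of this paragraph fell to 0 or 1 without at least 1 of the libraries. They were 2 and 0 of 10 meningeal fibroblast markers, 0 and 1 of 6 choroid plexus and ependyma markers, 0 and 1 of 4 neuron markers, 1 and 0 of 5 neural progenitor markers, 1 and 1 of 9 tested epithelial tumour cell markers, 1 and 0 of 13 genes of MHC class I presentation and 0 and 1 of 13 mitochondrially encoded genes. Of 2 MHC class II genes tested edgeR and DESeq2 called neither, and 1 had an unadjusted p under 0.05.

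To describe which differences go with cell content, the fit was repeated with the mean log2 level of a marker list as a covariate. The macrophage score, centred over the 15 libraries, was 0.18 to 0.68 in controls, -1.99 to -0.26 in IR and -0.95 to 1.04 in IS libraries. The endothelial score was -1.30 to -0.89, 0.46 to 1.45 and -0.86 to 1.08 in the same order, so controls and IR libraries did not overlap in either score. With the macrophage score 46 genes were called between IR and control (0.356%), 44 of which were also called without it. The median size of the difference for the 1514 genes fell from 0.66 to 0.33, 94.8% kept their sign, and the standard error was 1.39 times as large in the median. With the endothelial score 5 genes were called (0.0387%), the median size was 0.12, 63.2% kept their sign, and the standard error was 2.17 times as large. Neither score overlaps between controls and IR libraries, so in these fits cell content and group cannot be fully told apart. Scores of fibroblasts, mural cells, Schwann cells and astrocytes left 947, 1259, 1067 and 1905 genes called, and all 1514 kept their sign in each.

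**Figure D4:**
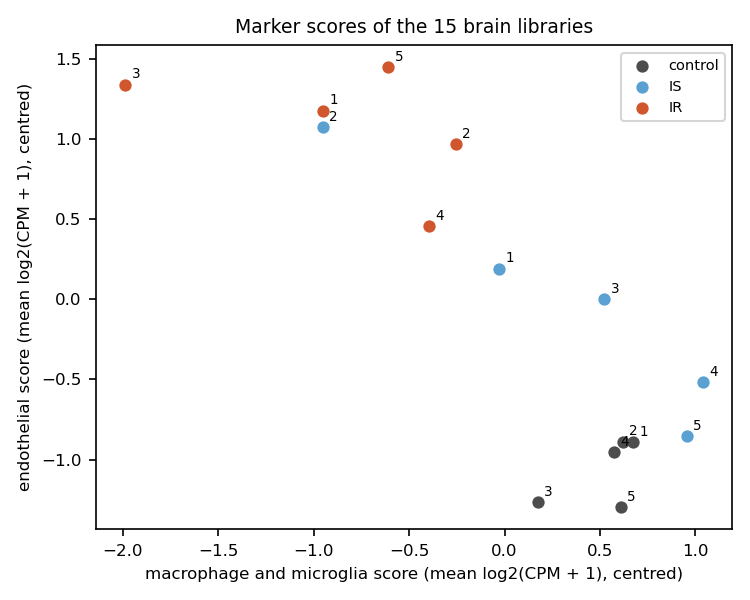
Endothelial score (y axis) against macrophage and microglia score (x axis), each the mean log2 level of the tested markers, of the 15 brain libraries, numbered by replicate. Controls group at low endothelial scores, IR libraries at high endothelial and low macrophage scores, and the 5 IS libraries run from IS 2, beside the IR libraries, to IS 5, beside the controls.

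The genes still called beside cell scores are described in 3 sets. The first were endothelial genes in fits without the endothelial score: the log2 difference of Pecam1 was 1.97, SE 0.34, with the macrophage score (edgeR adjusted p = 0.0203), and 7 of the 15 endothelial markers and Angpt2 were called higher in that fit (background 0.271%). The macrophage list itself had a median of 0.06 there, which follows from the score being made of it. The second was the fit with the macrophage, astrocyte and fibroblast scores together. It called 89 genes (0.689%), 64 higher and 25 lower, 83 of them also without scores. They hold 8 of 16 endothelial markers, all higher, 3 of 22 matrix glycoprotein and matricellular genes and 3 of 19 immediate early genes, all lower, so most of the 89 belong to none of these lists. Named members of the fit are Fos (-1.41, SE 0.19, edgeR adjusted p = 0.0102), Zfp36 (-1.01, SE 0.15), Lox (-1.16, SE 0.17), Loxl2 (-0.89, SE 0.14), Ccn5 (-1.76, SE 0.36), Col5a2 (-1.02, SE 0.19) and the astrocyte gap junction gene Gja1 (0.86, SE 0.12). Aldh1a1, a retinaldehyde dehydrogenase, was among the falls called in this fit (-0.82, SE 0.18). Sfrp4, a secreted Wnt inhibitor at 6.92 to 8.56 CPM in controls and 1.07 to 2.18 CPM in IR libraries, fell with and without these scores (-2.09 without).

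The third set was called with the macrophage and endothelial scores together, a fit added after seeing the data. It called 22 genes (0.17%), 16 of them also without scores, with a standard error 2.25 times as large in the median. It called 3 of the 5 tested melanocyte markers, all higher: Tyrp1 (4.80, SE 0.44, edgeR adjusted p = 9.36e-05), Oca2 (4.25, SE 0.81) and Mlana (3.09, SE 0.59). Others higher in IR include Ptgds (1.89, SE 0.27), Slc29a4 (1.69, SE 0.22), Chdh, choline dehydrogenase (1.47, SE 0.20), and Apoe (1.20, SE 0.23). Wnt2b, a Wnt ligand, was lower in IR libraries (79.5 to 114 CPM in controls, 54.1 to 64.2 CPM in IR). In this fit it was lower by more (-1.57, SE 0.24, against -0.70 without scores), as was Ier2 (-1.78, SE 0.34, against -0.98). The difference of Tyrp1 grew too, from 2.66 to 4.80. The 2 scores were correlated (Pearson r -0.84 over 15 libraries), so this fit separates their shares poorly and its sizes are uncertain. None of these genes belongs to the macrophage or endothelial list. The scores stand for 2 cell types only, and whether other cells in the cultures carry these genes was not tested.

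**Figure D5:**
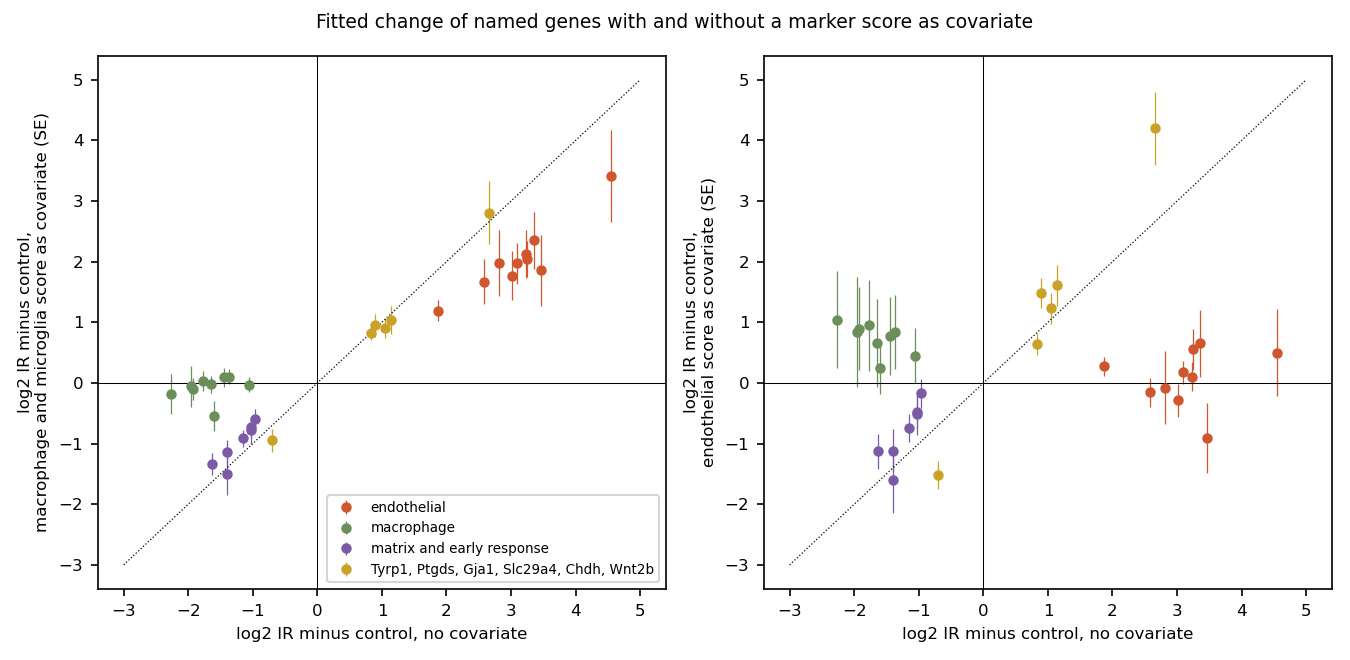
Fitted log2 difference of IR minus control without a covariate (x axis) against the same difference with the macrophage and microglia score (left) or the endothelial score (right) as covariate (y axis, bars are SE); the dotted line marks equal values. Most macrophage genes lie near 0 at left and all lie above 0 at right, endothelial genes stay above 0 at left and scatter on both sides of 0 at right, matrix and early response genes stay below 0 in both, and Tyrp1 stays far above 0 in both.

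IS cultures share their controls with this comparison, so their values are set beside the IR values without an overlap test. IS libraries against controls gave 835 called genes (6.46%). Endothelial markers were intermediate, with 9 of 16 called higher (background 3.37%), a median log2 difference of 1.32 against 2.46 in IR, and sums of 281 to 1228 CPM. Of the macrophage markers edgeR and DESeq2 called none in IS (background 3.37% higher, 3.1% lower) and none had an unadjusted p under 0.05, with a median of -0.04 against -1.30, and sums of 1377 to 5422 CPM. The IS libraries were spread widely in both: Pecam1 was at 80.6, 162, 57.5, 38.5 and 23.8 CPM and Csf1r at 30.4, 20.1, 41.4, 66.5 and 74.4 CPM in IS 1 to 5. IS 2 resembled the IR libraries and IS 5 the controls in these 2 genes. Lox and Fos were low in every IS library. Lox was at 378, 306, 363, 279 and 325 CPM in IS libraries (log2 -1.46 against controls, -1.40 for IR), Fos at 20.3, 22.1, 24.9, 21.2 and 28.8 CPM (-1.52 and -1.63), Ptgds at 253, 189.7, 184, 194 and 300.3 CPM (1.19 and 1.14) and Tyrp1 at 45.3, 57.5, 81.5, 101.3 and 151 CPM (2.94 and 2.66).

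The direct test of IR against IS called 6 genes (0.0464%), at an unadjusted p under 0.05 in 2344 genes, and DESeq2 called 604. No endothelial, macrophage, matrix or immediate early gene was among the 6. Pde10a, a cyclic nucleotide phosphodiesterase, was at 6.03, 5.78, 6.61, 5.32 and 6.86 CPM in IS and 9.93, 10.3, 10.96, 9.64 and 9.73 CPM in IR libraries (0.72), and Cemip2, a cell surface hyaluronidase, at 40.2, 45.9, 41.2, 39.9 and 35.7 CPM in IS and 56.7, 63.03, 73.7, 54.4 and 56.03 CPM in IR libraries (0.58). For both, all IR libraries were above all IS libraries. Pkdcc (-0.55), Rsrp1 (-0.75) and the transcripts 2900026A02Rik (0.47) and G530011O06Riky (-1.52) were the others. The count hung on single libraries: it was 1139 without IS 2, 200 without IS 1, 145 without IR 4 and 0 without IR 2, IR 3, IS 3 or IS 4, with 1 to 3 in the other fits.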

How the data were processed

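RNA of the brain cultures was sequenced as stranded mRNA libraries, per the labels' protocols. The authors deposited RSEM expected counts per Ensembl gene, per the deposited table's title; the submitters' processing notes name Trimmomatic, STAR, featureCounts and DESeq2 and the builds GRCm38 and GRCm39 without tying them to a table. The series text names an nf-core pipeline. Symbols came from the series' tumour table for 52139 of 55487 genes and from a reference table for 3257.

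The expected counts were rounded (97.8% were whole) and genes with 3 CPM or more in at least 3 of 15 libraries were kept, 12924 in all. edgeR 4.0.16 (R 4.3.3) fitted control, IS and IR with TMM scaling (factors 0.975 to 1.05) and its quasi-likelihood test, with Benjamini-Hochberg adjustment over all genes; the biological coefficient of variation was 0.159. Library pairs of a group differed by at least 6.34 times the sampling noise (chi-square per degree of freedom), so none was counted as 1 sample. DESeq2 1.42.0, limma 3.58.1 (voom), other scalings and filters, the replicate number as a block, cell scores as covariates and omitted libraries were alternatives. A score is the mean log2(CPM + 1) of a list's tested genes, centred. The script was tested on simulated data.

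Named by rule were the 12 largest rises and falls with a mean of 10 CPM or more and no overlap, up to 5 genes of lowest adjusted p per list with 2 or more called, up to 10 rises and 10 falls also called with the 3 joint scores, and 19 fixed check genes. The members, the 49 lists and the tests were chosen with earlier results of these data known. Kdr, Tie1, Tek, Robo4, Egfl7, Emcn, Abcb1a, Sox17, Vwf, Slco1a4, Angpt2, Apln, Cd34, Notch4, Tyrobp, Trem2, Adgre1, Ttr, Fbn1, Junb, Vcam1, Icam1, Ptgs2, Apoe, Gpnmb, Chdh, Slc29a4, Wnt2b, Serpini1 and the genes of the IR and IS test fall outside the rule and were chosen after their values were seen, as were the fit with macrophage and endothelial scores and the one without IR 3 and IR 4. Some genes that the rule names are not reported here. 3 columns of the culture table that belong to no sample here were not used.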

Additional observations from a re-analysis of the deposited data

Results flagged for a closer look

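In 5 libraries of a group, the highest or lowest value was marked where its gap to the next exceeded 0.71 of the group's range, which chance gives in about 1 of 20 groups. IR 3 was marked for Ly6c1 (52.0 CPM against 19.6 for the next), Lox (179.7 against 363), Pfkp (287 against 214), Trib3 (38.6 against 23.6) and Serpini1 (58.9 against 31.97), and IR 1 for Ngfr (82.4 against 43.3). Among controls, control 4 was high for Dll4 (1.63 CPM), control 1 for Ppp1r16b (2.58) and Mki67 (30.9), control 3 for Ccn5 (168) and control 5 for Fos (81.9). Control 5 was low for Slco1a4 (1.85 CPM) and Ccng1 (616), and control 2 was low for Aldh1a1 (99.8). The summed resident microglia level was low in control 1 (1356 CPM) and high in IR 4 (1651 CPM). IR 3 carried 5 of the marks and had the lowest macrophage sum. The number of marks was not set against the number that chance would give over all groups screened.

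The test of IR against IS itself singled out 6 genes: Pde10a (log2 IR minus IS 0.72), Cemip2 (0.58) and 2900026A02Rik (0.47) were higher in IR, and G530011O06Riky (-1.52), Rsrp1 (-0.75) and Pkdcc (-0.55) were lower.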

How the results depend on the processing

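Of the genes that the text names as called between IR and control, or between IR and IS, none changed sign under another scaling, another filter on low counts, the fit of control and IR libraries alone, DESeq2, limma-voom, the astrocyte, fibroblast, mural or Schwann score, the replicate block or any omitted library. Csf1 and Il1a are left out of this statement. The 1514 genes called between IR and control became 1895 with DESeq2 and 1351 with limma-voom. Leaving out 1 library gave 836 to 1803 genes, 526 to 998 of them higher and 310 to 805 lower; the total fell by over 1.5 times without IR 3, control 2 or control 4. Without both IR 3 and IR 4 there were 846, 550 higher and 296 lower. With cell scores as covariates the counts were 46 (35 higher, 11 lower) for macrophage and microglia, 5 (4 and 1) for endothelial, 947 for fibroblast (358 lower), 89 (64 and 25) for macrophage, astrocyte and fibroblast together, 22 (17 and 5) for macrophage and endothelial together, and 440 lower for Schwann and neural crest. These fits have fewer residual degrees of freedom and larger standard errors. The 6 genes called between IR and IS became 604 with DESeq2, 334 without a filter, 3 with library totals alone or a filter of 10 CPM, 12 with the mural score, 2 with the fibroblast or Schwann score, 1 with the macrophage, endothelial or 3 joint scores and 0 with the astrocyte score, and ran from 0 to 1139 with 1 library left out; the cause was not tested. The 835 genes called between IS and control became 392 with the endothelial, 368 with the Schwann and 437 with the 3 joint scores, and 465 to 872 with 1 library left out.

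Same-numbered libraries of different groups had correlations of their deviations from -0.192 to 0.230, not all above 0.1, and 3 of 15 libraries had as their closest library of another group the one with the same number, so the numbers were not taken to pair the libraries. With the replicate block, 1301 genes were called between IR and control (716 higher, 585 lower), 0 between IR and IS and 630 between IS and control.

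Signs turned only with cell scores, and members of a scored list, whose mean is the score, are included. With the endothelial score the log2 differences of IR minus control that turned were Cdh5 -0.16, Kdr -0.18, Tie1 -0.20, Tek -0.24, Robo4 -0.39, Egfl7 -0.057, Emcn -0.27, Abcb1a -0.29, Nos3 -0.91, Bcl6b -0.16, Ly6c1 -0.19, Afap1l1 -0.063, Apln -0.076, Cd34 -0.29, Plat -0.24, Inhbb -1.10, Acvrl1 -0.0069, Ptprc 0.56, Csf1r 0.25, Itgam 1.04, Spi1 0.54, Ctss 0.48, Tyrobp 0.84, Trem2 0.84, Adgre1 1.53, Mrc1 0.78, Mmp12 0.66, Msr1 0.95, Lat2 0.20, Clec7a 0.90, Itgax 0.84, Ccl3 0.51, Ccl4 1.15, Igf1 1.04, Lgals3 0.45, Itgb2 0.56, Col4a1 -0.24, Col4a2 -0.23, Ier3 -0.15, Ccl2 -0.25, Nfkbiz -0.72, Nfkbia -0.13, Vcam1 -0.25, Icam1 -0.47, Ptgs2 -1.02, Notch4 -0.29, Mitf 0.44, Cxcl14 0.76, Npy 0.34, Serpini1 -0.35, Cdkn2b -0.26, Egr2 0.31, Id2 0.40 and Pmp22 1.04. With the macrophage score they were Ptprc 0.13, Tyrobp 0.073, Trem2 0.10, Adgre1 0.33, Mrc1 0.095, Msr1 0.037, Igf1 0.24, Itgb2 0.057, Mitf 0.039, Cxcl14 0.11 and Pmp22 0.094. With the macrophage, astrocyte and fibroblast scores they were Ptprc 0.12, Tyrobp 0.052, Trem2 0.12, Adgre1 0.20, Mrc1 0.079, Msr1 0.044, Itgax 0.010, Igf1 0.24, Itgb2 0.081 and Egr2 0.20. With the macrophage and endothelial scores, added after seeing the data, they were Cdh5 -0.32, Kdr -0.0084, Tie1 -0.067, Tek -0.24, Robo4 -0.46, Egfl7 -0.041, Emcn -0.20, Abcb1a -0.25, Vwf -0.12, Dll4 -0.16, Nos3 -0.84, Ppp1r16b -0.036, Bcl6b -0.58, Afap1l1 -0.026, Apln -0.32, Cd34 -0.27, Plat -0.18, Inhbb -1.37, Itgam 0.34, Tyrobp 0.012, Trem2 0.057, Adgre1 0.67, Clec7a 0.077, Ccl3 0.0033, Ccl4 0.55, Igf1 0.029, Col4a1 -0.18, Col4a2 -0.19, Ier3 -0.023, Ccl2 -0.23, Nfkbiz -0.71, Nfkbia -0.044, Vcam1 -0.28, Icam1 -0.37, Ptgs2 -0.98, Notch4 -0.38, Mitf 0.14, Cxcl14 0.056, Serpini1 -0.019, Cdkn2b -0.28, Id2 0.27 and Pmp22 0.63.

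Depth limits the genes of few counts, such as Nrarp and Slco1a4 in controls, and the spread between 5 libraries limits small differences: in simulated data on these libraries, 83 of 100 genes changed 2-fold and 62 of 100 changed 1.5-fold were called. The simulation changed only these genes among 12924 and let each gene vary on its own. The real libraries also share a spread in cell scores, so these shares may not hold for the comparison itself. The fits do not separate a change in the number of cells of a type from a change within them.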
